A study of Mus musculus with 6 samples.

Results

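Among the transcripts measured in mouse alveolar macrophages, 32 genes of the T lymphocyte lineage were examined by the stage of thymocyte development at which they are used. They were found by gene symbol among 25206 genes, and all 32 were measured. The list holds 4 genes of the early stage, 7 of the double-positive stage, 5 of the mature stage and 16 that several stages share. The members were chosen by the values of Zcchc6-/- replicate 1, the array that carries most of their signal, so its excess is described here without a test. The difference between the other Zcchc6-/- arrays and the Zcchc6+/+ arrays was tested. The genotype contrast with all arrays, which includes these, helped to choose the members, so that test is not fully independent of the choice.

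Cells were obtained by lavage of the lungs of adult mice, with no sort named, and their total RNA was hybridised to Affymetrix Mouse Gene ST arrays. Knockout animals were Zcchc6-/- mice, in which exons of this RNA uridyltransferase gene flanked by loxP sites had been deleted in the germline with EIIa-Cre and the Cre transgene bred out before heterozygotes were crossed (3 arrays). Zcchc6+/+ mice served as controls (3 arrays), and neither genotype was treated. Mice of both sexes were used, and nothing in the labels ties each numbered array to a mouse of its own. The p-values therefore cover the spread among arrays, which may be technical in part. Values are log2 expression from Robust Multiarray Average (RMA), and the whole table ran between 0.35 and 13.07 with a median of 4.41.

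T lymphocytes arise in the thymus. From the early stage on, thymocytes cut and join the gene segments of the T cell receptor with the Rag1 and Rag2 recombinase. The enzyme encoded by Dntt adds bases at the joins. Cells then carry both Cd4 and Cd8 on their surface at the double-positive stage, where the receptor is tested against self peptides. Those that pass become mature cells, which express receptors for exit from the thymus and for homing, such as S1pr1 and Ccr7. Alveolar macrophages are myeloid cells and do not rearrange antigen receptor genes.

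Zcchc6, listed under its current symbol Tut7, was measured at 8.22, 7.69 and 8.13 in Zcchc6-/- arrays, against 8.72, 8.77 and 8.65 in Zcchc6+/+ arrays, and the genotypes did not overlap. Where the probes lie relative to the deleted exons was not given in the sources used here, so this level is a limited check of the labels. The 16 alveolar macrophage markers averaged 10.61 in Zcchc6-/- replicate 1 and 10.48 in each of Zcchc6-/- replicates 2 and 3, against 10.64 to 10.71 in Zcchc6+/+ arrays, so the markers of the labelled cell type were high on every array, that one included. Zcchc6-/- replicate 1 stood apart over all genes as well. Its mean correlation with the other 5 arrays was 0.982, against 0.987 to 0.990 for each of those. It was at least 1 log2 unit above every other array for 188 genes, whereas the same count was 24 for Zcchc6-/- replicate 2 and 1 to 4 for the remaining 4 arrays. Xist, the RNA of the inactive X chromosome, was high in Zcchc6-/- replicates 1 and 3 and Zcchc6+/+ replicates 2 and 3 (10.04 to 10.73) and low in Zcchc6-/- replicate 2 and Zcchc6+/+ replicate 1 (3.27 and 3.78). Ddx3y, a gene of the Y chromosome, was at 6.87 and 6.59 on the arrays with low Xist, against 2.28 to 2.96 on the others. Each genotype thus held arrays of both sexes, so its arrays were not all from 1 mouse.

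Promoters are shown for 7 members that span the range of the differences: Rag1 of the early group, Cd8a of the double-positive group, Il7r and Klf2 with the highest and lowest difference in the mature group, and Cd27, Cd3d and Cd3g of the shared group, Cd3d and Cd3g being neighbours on chromosome 9. Each sequence runs in the direction of transcription from 250 bases before to 50 after the RefSeq start (GRCm38.p6). Capitals mark matches on either strand to the motifs CTTTGA for TCF/LEF factors, CAGNTG for E proteins (the E-box), TGTGGT for RUNX factors, AGATAA for GATA factors and GGAAGT for ETS factors, families with roles in T cell development. Matches may overlap, as where an E-box match runs into a RUNX match in Rag1. The windows lie at chr2:101649483-101649782 on the minus strand, chr6:71373177-71373476 on the plus strand, chr15:9529827-9530126 on the minus strand, chr8:72318812-72319111 on the plus strand, chr6:125236978-125237277 on the minus strand, chr9:44981536-44981835 on the plus strand and chr9:44980382-44980681 on the minus strand, in the order below.
Rag1: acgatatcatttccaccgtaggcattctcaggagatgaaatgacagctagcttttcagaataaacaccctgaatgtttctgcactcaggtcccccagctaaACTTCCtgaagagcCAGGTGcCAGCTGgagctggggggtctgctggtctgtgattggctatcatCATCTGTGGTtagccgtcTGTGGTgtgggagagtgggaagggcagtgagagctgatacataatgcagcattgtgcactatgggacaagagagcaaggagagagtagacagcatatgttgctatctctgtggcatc
Cd8a: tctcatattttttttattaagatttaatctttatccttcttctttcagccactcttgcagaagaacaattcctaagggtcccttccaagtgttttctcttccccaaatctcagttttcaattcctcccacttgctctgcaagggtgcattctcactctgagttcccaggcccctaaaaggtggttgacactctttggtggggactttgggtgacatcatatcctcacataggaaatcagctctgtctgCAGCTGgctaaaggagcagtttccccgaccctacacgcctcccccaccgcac
Il7r: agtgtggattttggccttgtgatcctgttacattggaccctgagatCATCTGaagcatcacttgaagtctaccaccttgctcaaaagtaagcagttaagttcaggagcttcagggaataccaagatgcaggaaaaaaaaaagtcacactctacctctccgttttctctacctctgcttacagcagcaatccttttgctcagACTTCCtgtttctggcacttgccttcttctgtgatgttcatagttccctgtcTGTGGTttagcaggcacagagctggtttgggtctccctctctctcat
Klf2: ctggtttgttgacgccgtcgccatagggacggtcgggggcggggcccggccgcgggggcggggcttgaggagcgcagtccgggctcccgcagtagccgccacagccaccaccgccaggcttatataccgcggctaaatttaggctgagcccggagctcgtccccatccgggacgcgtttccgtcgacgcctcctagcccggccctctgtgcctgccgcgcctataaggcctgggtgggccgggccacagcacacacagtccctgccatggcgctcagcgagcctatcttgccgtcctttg
Cd27: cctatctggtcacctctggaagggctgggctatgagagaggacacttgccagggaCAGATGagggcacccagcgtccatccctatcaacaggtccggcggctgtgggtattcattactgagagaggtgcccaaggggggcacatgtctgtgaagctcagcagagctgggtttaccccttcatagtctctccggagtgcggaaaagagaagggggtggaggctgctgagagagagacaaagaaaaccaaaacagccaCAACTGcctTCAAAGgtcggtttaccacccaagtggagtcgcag
Cd3d: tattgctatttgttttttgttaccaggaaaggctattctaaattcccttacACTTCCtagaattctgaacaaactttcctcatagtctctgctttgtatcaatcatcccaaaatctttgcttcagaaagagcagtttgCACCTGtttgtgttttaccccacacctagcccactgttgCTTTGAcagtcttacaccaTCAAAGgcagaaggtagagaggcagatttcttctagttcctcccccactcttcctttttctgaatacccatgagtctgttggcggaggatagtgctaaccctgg
Cd3g: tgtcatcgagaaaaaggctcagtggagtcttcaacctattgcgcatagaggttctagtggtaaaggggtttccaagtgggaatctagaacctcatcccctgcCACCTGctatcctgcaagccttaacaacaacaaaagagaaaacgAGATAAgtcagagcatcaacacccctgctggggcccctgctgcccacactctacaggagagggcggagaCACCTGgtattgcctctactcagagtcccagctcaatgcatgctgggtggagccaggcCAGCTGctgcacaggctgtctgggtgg

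Klf2, with the lowest difference, held no match to any of the 5 motifs in its window, and Cd8a held a single E-box. A window each of Themis, Satb1 and Lef1, members with differences of 4.06, 4.10 and 2.04, held no match either. Windows were listed for 24 of the 32 members, 37 windows in all since some genes have several starts. The TCF/LEF letters were present in 16.2% of the member windows and 16.0% of all 32851 windows, the RUNX letters in 13.5% and 16.8%, and the GATA letters in 10.8% and 11.2%. The E-box was present in 73.0% of the member windows and 51.4% of all windows, and the ETS letters in 43.2% and 23.8%. Windows of 1 gene overlap in part, and a match is a run of letters, not a measured binding site.

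Of the 32 members, 22 were at least 1 log2 unit higher in Zcchc6-/- replicate 1 than in every other array, while 0.746% of all genes were. The array had the highest value for 28 members, against 22.6% of all genes. The median difference of the members between Zcchc6-/- replicate 1 and the mean of the other 5 arrays was 2.04, and the median over all genes was -0.017. In what follows, the difference of a gene is its log2 value on Zcchc6-/- replicate 1 minus the mean of the other 5 arrays, and its gap is that value minus the highest of the other 5. Values per genotype are given in the order of replicates 1, 2 and 3. Probes of different genes respond differently, so differences of genes are set side by side as values and not as amounts of RNA. In bulk samples, fewer cells of a type and less RNA per cell cannot be told apart.

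**Figure D1:**
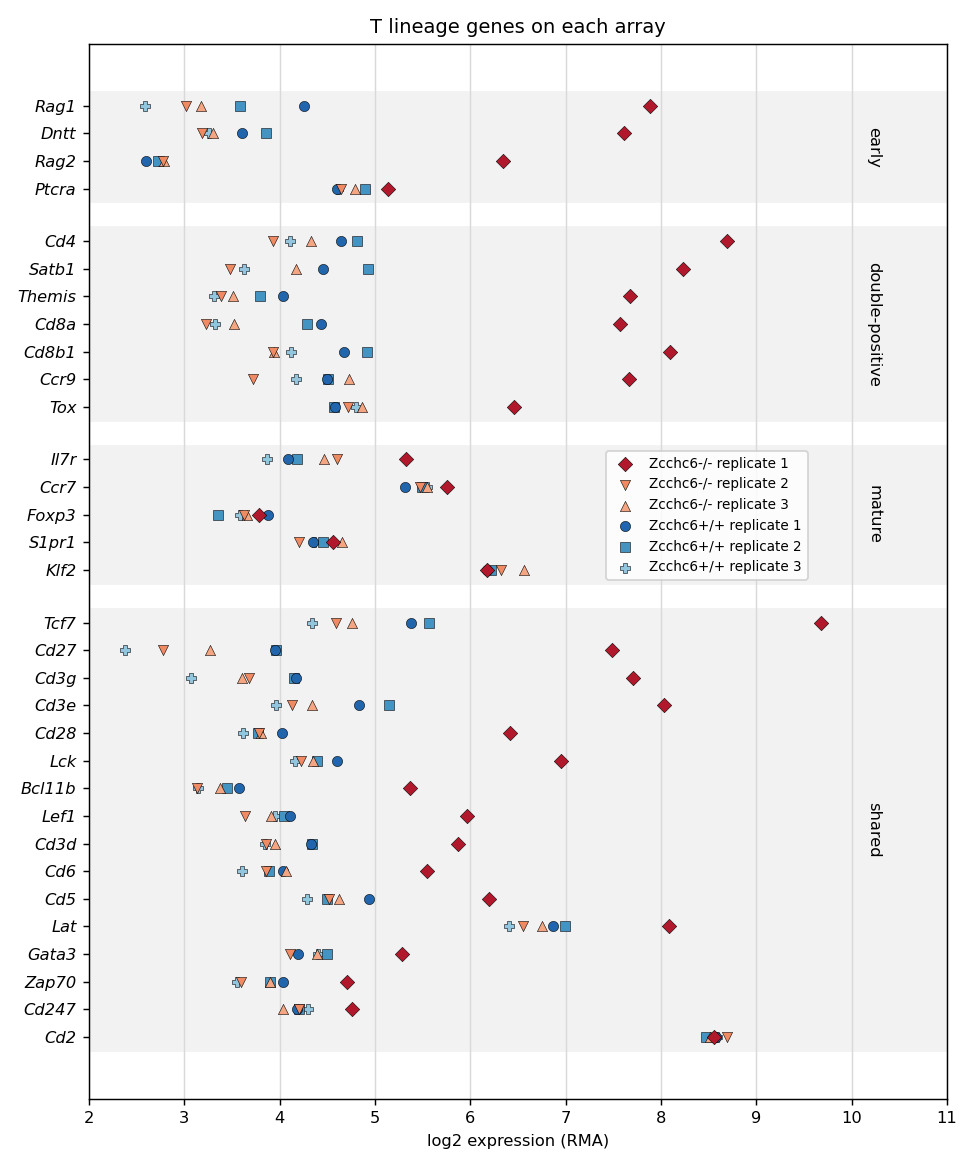
Log2 expression (x axis) of each of the 32 T lineage genes (rows, grouped by stage and ordered by difference) on the 3 Zcchc6-/- and 3 Zcchc6+/+ arrays (symbols). The dark red diamonds of Zcchc6-/- replicate 1 lie to the right of every other array for 28 genes, and not for S1pr1, Klf2, Foxp3 and Cd2.

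The 4 members grouped as early gave a median difference of 3.89, and 3 of the 4 passed a gap of 1 over every other array. The group names, here and below, are labels of use and not stages found in these data. A gene may be used at several stages, Rag1, Rag2 and Dntt included. Of 10 other genes of early thymocytes, listed below, 0 passed this gap, and their median difference was 0.024. Rag1, which cuts DNA at the recombination signals, was at 7.89, 3.02 and 3.17 in Zcchc6-/- arrays, against 4.25, 3.58 and 2.59 in Zcchc6+/+ arrays. Rag2, its partner, was at 6.34, 2.77 and 2.78 in Zcchc6-/- arrays, against 2.60, 2.72 and 2.75 in Zcchc6+/+ arrays. The other 5 arrays were even, with a standard deviation of 0.074, beside a difference of 3.62. Dntt, the terminal transferase, was at 7.61, 3.19 and 3.30 in Zcchc6-/- arrays, against 3.60, 3.86 and 3.26 in Zcchc6+/+ arrays. In each of these genes Zcchc6-/- replicate 1 was high and the other Zcchc6-/- arrays lay within or close to the range of the Zcchc6+/+ arrays. Ptcra, which encodes the pre-T cell receptor alpha chain, was at 5.14, 4.64 and 4.79 in Zcchc6-/- arrays, against 4.60, 4.89 and 4.61 in Zcchc6+/+ arrays, a difference of 0.43. It also was highest in Zcchc6-/- replicate 1, but by only 0.25 over the next array.

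All 7 double-positive genes passed the gap of 1, with a median difference of 3.82. Cd4, the co-receptor for MHC class II, was at 8.69, 3.92 and 4.33 in Zcchc6-/- arrays, against 4.64, 4.81 and 4.10 in Zcchc6+/+ arrays. Cd8a and Cd8b1 encode the chains of the co-receptor for MHC class I. Cd8a was at 7.57, 3.22 and 3.52 in Zcchc6-/- arrays, against 4.43, 4.28 and 3.32 in Zcchc6+/+ arrays. Cd8b1 was at 8.09, 3.93 and 3.94 in Zcchc6-/- arrays, against 4.68, 4.92 and 4.11 in Zcchc6+/+ arrays. Both co-receptors were high on the same array, with differences of 4.33, 3.82 and 3.77. In bulk RNA, cells that carry both cannot be told apart from a mixture of cells that carry either. Themis, needed for positive selection of thymocytes, was at 7.67, 3.38 and 3.51 in Zcchc6-/- arrays, against 4.04, 3.80 and 3.31 in Zcchc6+/+ arrays. Satb1, a chromatin organiser of thymocytes, was at 8.23, 3.48 and 4.17 in Zcchc6-/- arrays, against 4.45, 4.92 and 3.62 in Zcchc6+/+ arrays. Ccr9, a receptor for the thymic and gut chemokine Ccl25, was at 7.66, 3.72 and 4.73 in Zcchc6-/- arrays, against 4.49, 4.51 and 4.17 in Zcchc6+/+ arrays. The 3 genes had differences of 4.06, 4.10 and 3.34, and Zcchc6-/- replicate 2 was the lowest array for Satb1 and Ccr9. Tox, a nuclear factor needed for the CD4 lineage, had the smallest difference of the group, 1.75, at 6.46, 4.71 and 4.86 in Zcchc6-/- arrays, against 4.58, 4.57 and 4.80 in Zcchc6+/+ arrays.

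None of the 5 mature stage genes passed the gap of 1, and their median difference was 0.17. Il7r, the receptor for interleukin 7, which is low at the double-positive stage and returns in mature cells, was at 5.32, 4.60 and 4.46 in Zcchc6-/- arrays, against 4.08, 4.18 and 3.86 in Zcchc6+/+ arrays. It had the largest difference of the group, 1.08, and Zcchc6-/- replicates 2 and 3 were also above every Zcchc6+/+ array. Ccr7, the homing receptor for lymph nodes, was at 5.75, 5.47 and 5.54 in Zcchc6-/- arrays, against 5.32, 5.49 and 5.54 in Zcchc6+/+ arrays. S1pr1, the exit receptor, was at 4.56, 4.20 and 4.65 in Zcchc6-/- arrays, against 4.35, 4.45 and 4.36 in Zcchc6+/+ arrays. Their differences were 0.28 and 0.16, beside standard deviations of 0.093 and 0.17 among the other 5 arrays. Klf2, the factor that drives S1pr1 in mature T cells, was at 6.17, 6.32 and 6.56 in Zcchc6-/- arrays, against 6.17, 6.22 and 6.18 in Zcchc6+/+ arrays. Foxp3, the factor of regulatory T cells, was at 3.79, 3.62 and 3.65 in Zcchc6-/- arrays, against 3.88, 3.35 and 3.58 in Zcchc6+/+ arrays. Zcchc6-/- replicate 1 was the highest array for neither of these and their differences were -0.12 and 0.17. The 4 members in which Zcchc6-/- replicate 1 was not the highest array were thus S1pr1, Klf2 and Foxp3 of this group and Cd2 of the shared group.

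**Figure D2:**
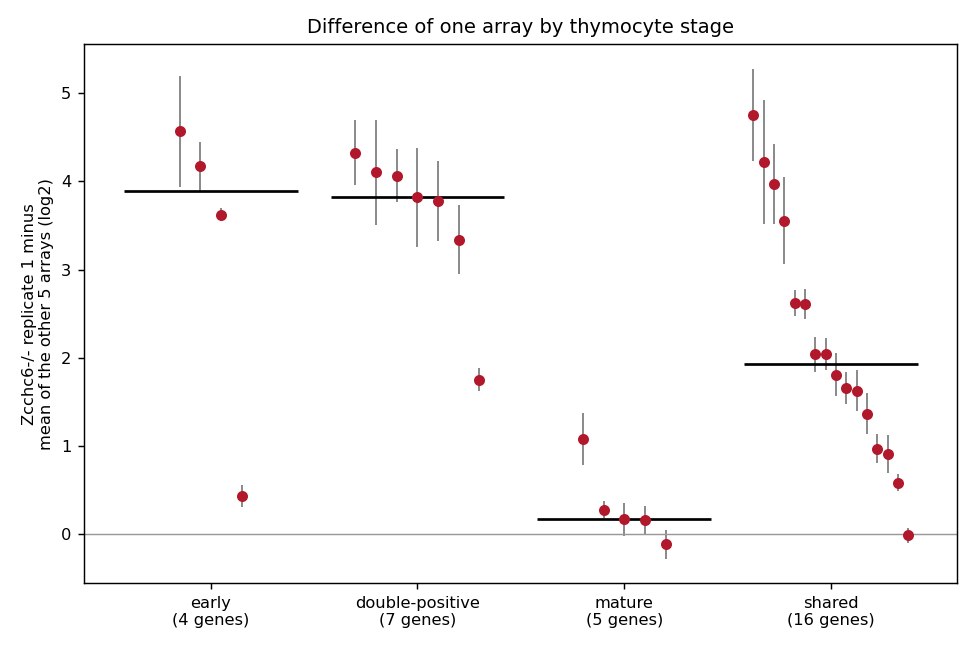
Difference between Zcchc6-/- replicate 1 and the mean of the other 5 arrays (y axis, log2) for each gene, by stage group (x axis). Points are genes, bars are the standard deviation of the other 5 arrays and horizontal lines are group medians, which stand at 3.89 for early, 3.82 for double-positive, 0.17 for mature and 1.92 for shared genes.

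The 16 shared genes gave a median difference of 1.92, and 12 passed the gap of 1. Tcf7, the factor of the T lineage induced by Notch, had the largest difference of all 25206 genes, 4.76, which is 27.0-fold over the geometric mean of the other 5 arrays. It was at 9.68, 4.59 and 4.76 in Zcchc6-/- arrays, against 5.38, 5.56 and 4.34 in Zcchc6+/+ arrays. Its relative Lef1 was at 5.97, 3.63 and 3.91 in Zcchc6-/- arrays, against 4.11, 4.04 and 3.95 in Zcchc6+/+ arrays. Bcl11b, the factor that commits cells to the T lineage, was at 5.37, 3.13 and 3.37 in Zcchc6-/- arrays, against 3.57, 3.45 and 3.14 in Zcchc6+/+ arrays. Gata3, which acts from the first T stages on but also in innate lymphocytes, was at 5.28, 4.11 and 4.39 in Zcchc6-/- arrays, against 4.19, 4.49 and 4.40 in Zcchc6+/+ arrays, with a gap of 0.79. The factors therefore shared a direction, with differences of 4.76, 2.04, 2.04 and 0.97.

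The chains of the CD3 complex carry the signal of the receptor into the cell. Cd3e was at 8.03, 4.12 and 4.33 in Zcchc6-/- arrays, against 4.83, 5.14 and 3.96 in Zcchc6+/+ arrays. Cd3g was at 7.71, 3.68 and 3.61 in Zcchc6-/- arrays, against 4.17, 4.15 and 3.07 in Zcchc6+/+ arrays. Cd3d, which lies head to head with Cd3g, was at 5.87, 3.86 and 3.95 in Zcchc6-/- arrays, against 4.32, 4.33 and 3.84 in Zcchc6+/+ arrays. The 3 differences were 3.55, 3.97 and 1.81, whereas Cd247, the zeta chain that natural killer cells also use, had 0.58 and was at 4.76 in Zcchc6-/- replicate 1, against 4.03 to 4.30 in the other 5 arrays. Of the kinases and the adaptor next in the pathway, Lck was at 6.95 in Zcchc6-/- replicate 1, against 4.16 to 4.60 in the other 5 arrays. Zap70, which binds the phosphorylated zeta chain, was at 4.70 in Zcchc6-/- replicate 1, against 3.55 to 4.03 in the other 5 arrays. Lat, the membrane adaptor that Zap70 phosphorylates, was at 8.08 in Zcchc6-/- replicate 1, against 6.41 to 6.99 in the other 5 arrays. Their differences were, from highest to lowest, those of Lck (2.61), Lat (1.37) and Zap70 (0.91).

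Of the surface receptors, Cd27, a co-stimulatory receptor of the TNF receptor family, was at 7.49, 2.78 and 3.27 in Zcchc6-/- arrays, against 3.95, 3.96 and 2.37 in Zcchc6+/+ arrays. Cd28, the co-stimulatory receptor for B7 ligands, was at 6.42 in Zcchc6-/- replicate 1, against 3.61 to 4.02 in the other 5 arrays. Cd5 and Cd6, related receptors with scavenger receptor domains, had smaller differences, 1.63 and 1.65. Cd5 was at 6.20 in Zcchc6-/- replicate 1, against 4.29 to 4.93 in the other 5 arrays, and Cd6 was at 5.54 in Zcchc6-/- replicate 1, against 3.61 to 4.06 in the other 5 arrays. Cd2, an adhesion receptor, was level over the 6 arrays, at 8.55, 8.69 and 8.51 in Zcchc6-/- arrays, against 8.58, 8.47 and 8.59 in Zcchc6+/+ arrays, a difference of -0.01. The members nearest to the gap of 1 were Lat (1.09) and Cd5 (1.27) above it, and Gata3 (0.79) and Il7r (0.72) below it.

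Whether the T lineage genes changed with the loss of Zcchc6 apart from that array was tested in the 5 other arrays. With limma, 0 of 32 members passed an adjusted p under 0.05 in Zcchc6-/- replicates 2 and 3 against Zcchc6+/+ arrays, where 0.00397% of all genes did, the olfactory receptor gene Olfr43 alone. The median difference over members was -0.11, against -0.0028 over all genes, and 22 of 32 members (68.8%) had the lower mean in the Zcchc6-/- replicates, as did 50.8% of all genes. At an unadjusted p under 0.05 stood 2 members, and 1503 of all 25206 genes. Il7r averaged 4.53 in Zcchc6-/- replicates 2 and 3 and 4.04 in Zcchc6+/+ arrays, a log2 difference of 0.49 (standard error 0.13, limma adjusted p = 0.717). Cd8b1 averaged 3.94 in these Zcchc6-/- replicates and 4.57 in Zcchc6+/+ arrays, a log2 difference of -0.63 (standard error 0.23, limma adjusted p = 0.775). Both replicates lay below every Zcchc6+/+ array for 2 members, Cd8b1 and Lef1, while 10.6% of all genes did so, and above every Zcchc6+/+ array for 3 members, Rag2, Il7r and Klf2, with 10.4% of all genes.

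With all 6 arrays, the means of the 32 members were higher in Zcchc6-/- than in Zcchc6+/+ arrays in every case, with a median log2 difference of 0.72, against -0.0063 over all genes. Since this contrast helped to choose the members, the values are a description. No member passed the limma test over all genes, and 0.0% of all genes did (1268 genes had an unadjusted p under 0.05). The standard errors of single members reached 1.26 for Tcf7, which averaged 6.34 ± 2.89 in Zcchc6-/- and 5.09 ± 0.66 in Zcchc6+/+ arrays (SD, n = 3 each). Without Zcchc6-/- replicate 1 the median over members was -0.11, so its direction rests on that array. Every Zcchc6-/- array was above every Zcchc6+/+ array for 2 members, Rag2 and Il7r, and for 5.03% of all genes.

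The other 5 arrays were not even among themselves. Among them, Zcchc6-/- replicates 2 and 3 were highest for 2 and 6 members, while Zcchc6+/+ replicates 1, 2 and 3 were highest for 11, 11 and 2 members. Over all genes these arrays were highest for 22.0% and 21.2%, and for 18.9%, 20.5% and 17.4%. Zcchc6+/+ replicate 3 was the lowest of the 5 for 14 members and Zcchc6-/- replicate 2 for 10, where these arrays were lowest for 18.2% and 26.3% of all genes. The median deviation of the members from the mean of the 5 was -0.20 and 0.02 for Zcchc6-/- replicates 2 and 3, and 0.23, 0.15 and -0.20 for Zcchc6+/+ replicates 1, 2 and 3. The size of the excess in Zcchc6-/- replicate 1 was set beside the differences within Zcchc6+/+ arrays. Across the 32 members, the difference between Zcchc6-/- replicate 1 and the mean of Zcchc6-/- replicates 2 and 3 had a Pearson correlation of 0.78 and a Spearman correlation of 0.77 with the difference between Zcchc6+/+ replicates 2 and 3. The values were 0.73 and 0.73 for Zcchc6+/+ replicates 1 and 3, and -0.075 and -0.060 for Zcchc6+/+ replicates 1 and 2. The Pearson values over all genes were 0.26, 0.20 and -0.048. Genes are not independent replicates, and the values of Zcchc6-/- replicate 1 that enter here chose the members. The first and second of these differences share Zcchc6+/+ replicate 3, and all arrays were normalised together. These correlations are therefore descriptions.

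**Figure D3:**
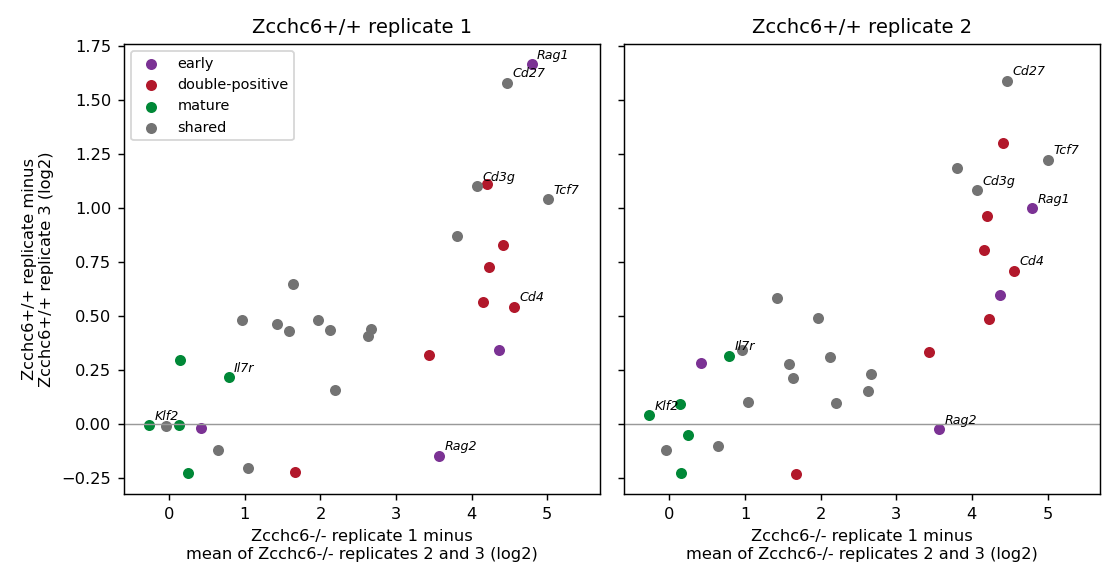
Each point is a T lineage gene, coloured by stage group. The x axis is Zcchc6-/- replicate 1 minus the mean of Zcchc6-/- replicates 2 and 3, and the y axis is Zcchc6+/+ replicate 1 (left) or 2 (right) minus Zcchc6+/+ replicate 3, all in log2 units; Rag1, Cd27 and Tcf7 lie to the upper right in both panels, while Rag2 is high on the x axis with values near 0 on the y axis.

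Rag1 was graded within Zcchc6+/+ arrays, with 4.25, 3.58 and 2.59 in replicates 1, 2 and 3. Cd27 was lowest in replicate 3 as well, at 3.95, 3.96 and 2.37, and so was Tcf7 at 5.38, 5.56 and 4.34. Rag2, by contrast, was at 2.60, 2.72 and 2.75, which are level, although its difference in Zcchc6-/- replicate 1 was 3.62. The Zcchc6+/+ values of Rag1, Cd27 and Rag2 lie below 4.41, the median of all values. The largest of these member differences was 5.01 for Zcchc6-/- replicate 1 over its fellow replicates (Tcf7), and 1.66 among Zcchc6+/+ arrays (Rag1).

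Genes of the same stages outside the members were listed separately and gave counts of 0 of 10 for early thymocytes, 8 of 16 for double-positive thymocytes, 4 of 28 for mature T cells and 7 of 19 for T cell receptor signalling that were at least 1 log2 unit above every other array in Zcchc6-/- replicate 1. The median differences were 0.024, 1.04, 0.22 and 1.04. Arpp21, an RNA-binding phosphoprotein gene of double-positive thymocytes, was at 5.66 in Zcchc6-/- replicate 1, against 2.23 to 2.94 in the other 5 arrays. Aqp11, a water channel, was at 6.96 in Zcchc6-/- replicate 1, against 3.47 to 4.28 in the other 5 arrays. Some genes of the double-positive list had differences below 0. Cd24a, a surface glycoprotein of immature lymphocytes, was at 7.57, 7.93 and 7.84 in Zcchc6-/- arrays, against 8.82, 8.34 and 8.44 in Zcchc6+/+ arrays. Every Zcchc6-/- array was below every Zcchc6+/+ array for Cd24a, as for 1298 of all 25206 genes, so its low level was not particular to replicate 1. Cd69 and Cd1d1 had differences of -0.39 and -0.31. These 3 were named after their values were seen. Of the early list, the largest gaps were those of Mpzl2 (0.62) and Il2ra (0.56), the interleukin 2 receptor alpha chain. Of the mature list, Gimap6, a GTPase gene of lymphocytes, was at 4.59 in Zcchc6-/- replicate 1, against 2.75 to 3.23 in the other 5 arrays. In the signalling list Rasgrp1, which activates Ras below the T cell receptor, was at 6.45 in Zcchc6-/- replicate 1, against 2.94 to 3.42 in the other 5 arrays. Trat1 and Cd96 had gaps of 2.76 and 2.74.

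**Figure D4:**
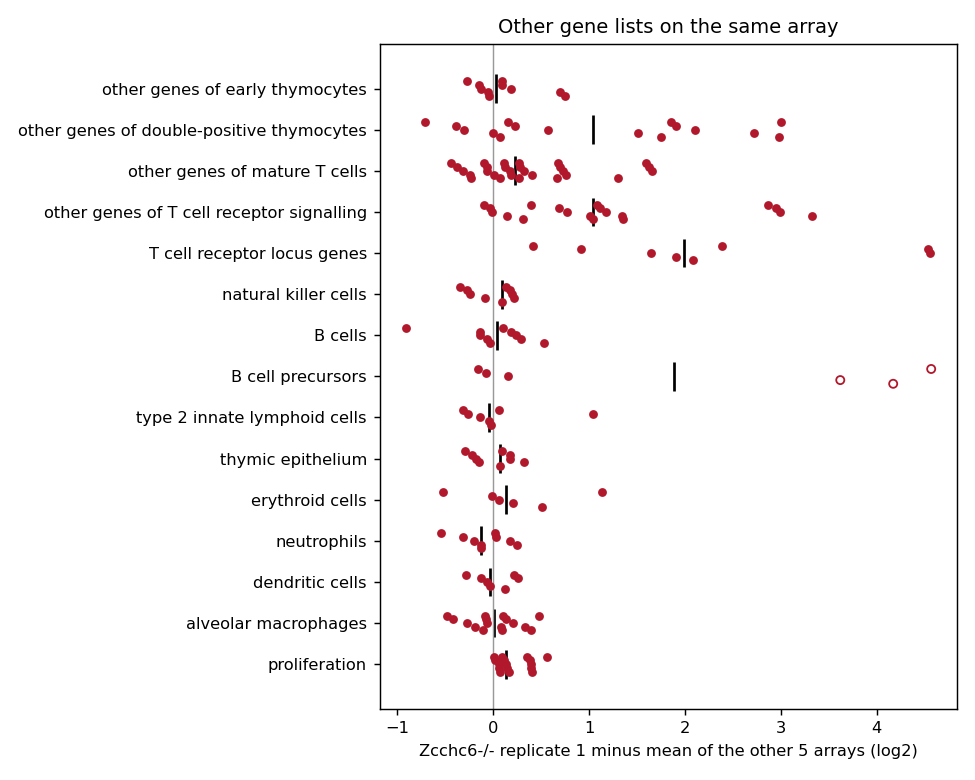
Difference between Zcchc6-/- replicate 1 and the mean of the other 5 arrays (x axis, log2) for the genes of 15 other lists (rows). Filled points are genes outside the members, open circles are members that a list shares, and vertical lines are list medians with members included, which stand at 1.04 for double-positive and for signalling genes and 1.99 for receptor locus genes.

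Markers of other cells gave 0 genes at the gap of 1 in each list once members were set aside: 9 of natural killer cells, 10 of B cells, 3 of B cell precursors, 7 of type 2 innate lymphoid cells, 9 of thymic epithelium, 6 of erythroid cells, 9 of neutrophils, 7 of dendritic cells and 16 of alveolar macrophages. The B cell precursor list shares Rag1, Rag2 and Dntt with the members, and its other genes had a median difference of -0.080. The natural killer list averaged 3.12 in Zcchc6-/- replicate 1 and 2.95 to 3.17 in Zcchc6-/- replicates 2 and 3, against 3.06 to 3.26 in Zcchc6+/+ arrays, and the B cell list averaged 3.84 in that array and 3.79 to 3.80 in those replicates, against 3.76 to 3.99 in Zcchc6+/+ arrays. Cd79b, a chain of the B cell receptor complex, had a gap of 0.37 and Il17rb of the innate lymphoid list a gap of 0.92. Ighm, an immunoglobulin gene in none of the lists, had a gap of 2.60. The erythroid list averaged 3.53 in Zcchc6-/- replicate 1. It averaged 3.15 to 3.49 in Zcchc6-/- replicates 2 and 3 and 3.19 to 3.47 in Zcchc6+/+ arrays. Apart from the erythroid and B cell precursor lists, the averages of these marker lists on replicate 1 lay within the range of the other arrays. None of the 16 proliferation genes reached the gap, with a median difference of 0.14. That list was higher over all Zcchc6-/- arrays, with a median log2 difference of 0.41 from Zcchc6+/+ arrays (0.45 without Zcchc6-/- replicate 1) and every Zcchc6-/- array above every Zcchc6+/+ array for 14 of the 16 genes, beside 5.03% of all genes, though 0 passed the limma test. The part of other cell types in the members' values was not tested.

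The T cell receptor loci were high on the same array. Of the 8 measured constant and other locus genes, 6 were at the gap of 1. Trac, the alpha constant gene, was at 8.98 in Zcchc6-/- replicate 1, against 3.76 to 5.11 in the other 5 arrays, and Trbc1, a beta constant gene, was at 10.60 in Zcchc6-/- replicate 1, against 5.25 to 7.02 in the other 5 arrays. Gamma constant genes were included, with gaps of 2.11 for Trgc1 and 1.84 for Trgc4. The variable and joining segments were counted after their values had been seen. Of 148 measured T cell receptor segments, 69 were at the gap of 1: all 13 Trbj, 31 of 50 Traj, 11 of 21 Trbv and 8 of 46 Trav segments, as well as 2 of 2 Trdj, 3 of 4 Trgj, 1 of 5 Trdv and 0 of 7 Trgv segments. Immunoglobulin segments gave 6 of 191, where 0.746% of all genes were at the gap. Near-identical segments can share probes, so counts of segments are not counts of independent genes.

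**Figure D5:**
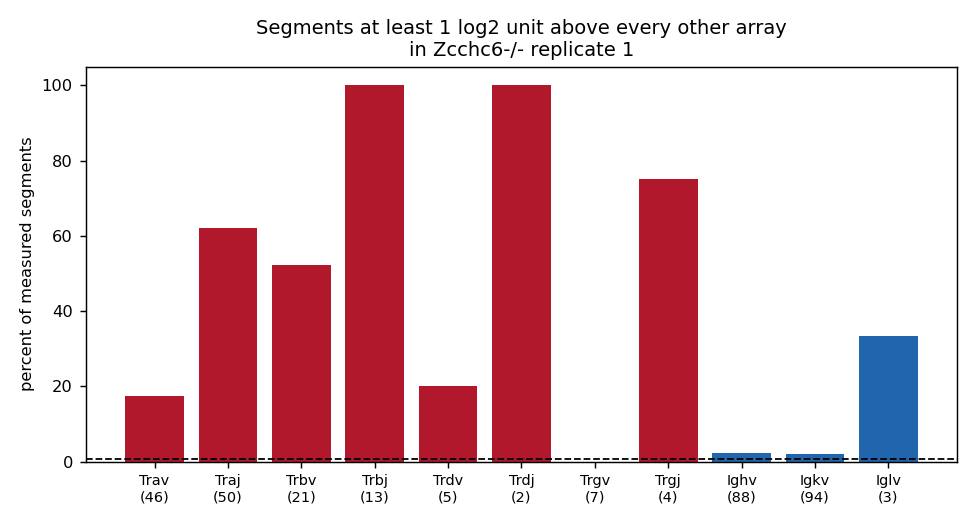
Share of the measured segments of each family (x axis, number in brackets; T cell receptor in red, immunoglobulin in blue) that were at least 1 log2 unit above every other array in Zcchc6-/- replicate 1 (y axis, percent). The dashed line is the share over all genes, 0.746%, and the Trbj segments reach 100%, Traj 62.0% and Trav 17.4%.

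Of the 188 genes that Zcchc6-/- replicate 1 held at least 1 log2 unit above every other array, 22 were members and 97 (51.6%) were members or receptor locus genes. A further 19 stood in the other T cell lists, and 61 with a symbol stood in no list and no segment family.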

How the data were processed

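Values were the deposited log2 expression values that the authors made with RMA in affy 1.36.1 under R 2.15.1, for 25206 genes keyed by Entrez gene identifier, of which 23740 had a symbol in the annotation. The genome build of the processing was not given in the sources used here. All 6 value columns belonged to the samples. The arrays were grouped by genotype label, and limma 3.58.1 in R 4.3.3 fitted the genotype difference with empirical Bayes variances and Benjamini-Hochberg adjustment over all genes, once with all arrays and once without Zcchc6-/- replicate 1. No filter was applied. The fit was tested on simulated data. Every member is named, with up to 4 genes of each other list and the 10 genes outside every list by their gap over the highest other array; a few more were named after their values were seen, and some genes that the rule names are not reported here. Members and lists were chosen with earlier results of these data known. Promoters came from RefSeq (GRCm38.p6). Same-numbered arrays did not deviate together (correlations 0.09, -0.23 and 0.05), so the numbers were not used as pairs. Alternatives left out each array or changed the filter, centring, normalisation, variances or weights. The number of arrays limits the precision.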

Additional observations from a re-analysis of the deposited data

How the results depend on the processing

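The excess of Zcchc6-/- replicate 1 chose the members, so its values under the alternatives are descriptions. Leaving out each of the other arrays in turn, the median difference was 1.98 to 2.09; the count of 22 past the gap cannot fall when such an array is left out, and replicate 1 itself cannot be left out. A filter at the median of all genes, over the mean of 6 arrays, left 17 members, with 10 past the gap and a median of 1.63; in the early group it left Ptcra (0.43), and in the shared group 7 genes (1.63). Of these 17, 7 passed the filter only through replicate 1, and 5 of the 10 past the gap were among them. A filter on the mean of the other 5 arrays, chosen after the data were seen, left 10 members, with 5 past the gap and a median of 0.90; the early group was Ptcra (0.43), the double-positive group Tox (1.75) and the shared group 5 genes (1.63). With a gap of 2 in place of 1, 15 of 32 members passed, and 67 of all 25206 genes. With a gap of 0.5, 25 members passed. Both gaps were chosen after the data were seen. For the gap of 0.5 and for the filters, the share over all genes was not counted, so nothing is read from those counts. The median over members in the 6-array contrast ran from -0.11 to 1.00 on leaving out arrays, the lowest being without Zcchc6-/- replicate 1, and was 0.25 with array weights. Without that array it ran from -0.24 to -0.02. Members past the threshold numbered 0 in each fit. Genes past it numbered 0 to 1 with all arrays as arrays were left out, and 0 to 2 without Zcchc6-/- replicate 1, where an arm of 1 array was assumed to vary like the rest. In this comparison without Zcchc6-/- replicate 1, 4 genes passed after the filter and 2 with trended variances. With the replicate block, 0 genes and 0 members passed in either comparison, and the medians over members were 0.72 and -0.04; the paired numbers have no basis in the labels.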

Other observations

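Outside every list, the 10 named genes with the largest gap between Zcchc6-/- replicate 1 and the other arrays were 8 T cell receptor segments, Myb and Ighv10-1. Myb, a transcription factor of immature haematopoietic cells and thymocytes, was at 8.54 in Zcchc6-/- replicate 1, against 4.05 to 4.89 in the other 5 arrays. Trbj1-7 led with 6.52 in Zcchc6-/- replicate 1, against 1.55 to 2.27 in the other 5 arrays, and the immunoglobulin segment Ighv10-1 was at 5.74 in Zcchc6-/- replicate 1, against 1.69 to 2.40 in the other 5 arrays. A few further genes were named after their values were seen. Thy1, a surface glycoprotein of thymocytes, was at 7.78 in Zcchc6-/- replicate 1, against 4.61 to 4.97 in the other 5 arrays. Ets1 and Fyb, a transcription factor and an adaptor of lymphocytes, had gaps of 2.20 and 2.82. Ighm, the immunoglobulin mu heavy chain gene, had a gap of 2.60, and Spo11, which makes DNA breaks in meiosis, one of 2.81. Ptprc, the CD45 antigen that all leukocytes carry, was level at 10.55 in Zcchc6-/- replicate 1, against 10.47 to 10.52 in the other 5 arrays. The cause of these values was not tested.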
